A study of Drosophila melanogaster with 12 samples.

Results

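The genes described here are the innate immune genes of Drosophila melanogaster on an expression array: antimicrobial and other induced peptides, recognition proteins, the signalling chains of the Toll and Imd pathways, Turandot stress peptides and thioester proteins. They were chosen by name, as every gene whose symbol starts with PGRP or GNBP and 36 listed genes. That rule names 51 genes, of which 49 had a probe set, and with 1 probe set per gene (the brightest over the 12 arrays) 48 probe sets were kept of the 18769 on the array that are not controls. CecA1 and CecA2 had no matched probe set, AttB was measured through a probe set shared with AttA (called AttA/AttB), and PGRP-SC1a and PGRP-SC1b shared another. The current names of Dpt, IM4, IM10 and IM23 are DptA, Dso1, BaraA2 and BomBc1.

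Flies have no antibodies and answer microbes through the Toll and Imd pathways. Circulating and membrane-bound proteins sense cell wall fragments, the signal passes through kinases or a caspase to NF-kappaB type factors, and these switch on secreted peptides, mainly in the fat body and in barrier epithelia such as the gut and tubules. Malpighian tubules, the excretory organs, are known for an Imd response of their own.

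The arrays form 4 groups of 3, all from L3 (last stage) larvae kept on normal food. Control wing discs carried nub-Gal4 alone, per the design text, although their titles read wt, and the other discs carried nub-Gal4 and UAS-MiT, a transgene that the header of the authors' table gives as CDS3. The driver acts in the wing-forming region only, so the rest of each disc keeps its own MiT level. Hindgut and Malpighian tubules, collected together, came either from wild type or from larvae of the MiT mutant genotype MiTTZ2/Df(4)TZ, whose titles read EMSTZ2; how far the deficiency reaches is not stated in those labels. MiT, called Mitf in the files, is the MITF/TFE family transcription factor of the fly. The series asked which loci rise with gain of MiT in the disc and fall with its loss in hindgut and tubules. The labels do not say whether the 3 replicates were separate batches of animals, so p-values measure the spread between these samples only.

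Levels are GCRMA values on the log2 scale, on which 1 unit is a 2-fold change. A level of 4 was taken as the limit of detection, and a level is compared only within a gene, since probes differ in brightness. The Mitf probe set was at 7.93, 7.91 and 8.15 in control discs and at 8.02, 8.11 and 8.21 in MiT discs, a difference of 0.12 that did not pass (limma, adjusted p = 0.372), and whether that probe set lies in the transgene's sequence is not given. In hindgut with tubules Mitf was at 7.05, 6.55 and 6.16 in wild type and at 4.54, 4.19 and 4.51 in the mutant, which is 4.51-fold lower (limma, adjusted p = 0.00919).

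Markers of the labelled tissues were present. In the discs 11 of 12 wing disc markers had a mean of at least 4, and in hindgut with tubules all 7 tubule and all 6 hindgut markers did, beside 1 of 8 larval midgut markers. Other cells were present too. Averaged over 10 fat body markers, the level was 9.96 to 11.26 on the wild-type arrays and 9.28 to 10.86 on the mutant arrays, against 6.87 to 8.26 in control discs and 3.45 to 8.09 in MiT discs; Lip3 and Cp7Fb of that list were under 4 in every group. Averaged over 14 hemocyte (blood cell) markers, it was 6.20 to 6.98 in control discs and 7.53 to 8.08 in MiT discs, which did not overlap, and 5.78 to 6.47 and 6.12 to 6.51 in wild-type and mutant hindgut with tubules.

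Some arrays stood apart from their group. On wild-type hindgut-tubule array 3, 14 of the 48 immune genes (29.2%) were at least 2-fold over both other wild-type arrays, against 213 of all 18769 probe sets (1.13%). On each of the other 11 arrays 0 to 3 immune genes were that far over the rest of their group. Control disc array 3 had 3 (6.25%, against 0.389% of all) and MiT disc array 1 had 2 (4.17%, against 0.33%). The remaining arrays had 0 or 1 (2.08%), against 0.0426% to 5.31% of all. Mutant array 2 was the odd array for the whole transcriptome: 996 probe sets (5.31%) were at least 2-fold over both other mutant arrays there, among them TotA alone of the immune genes. Values without these arrays are given below where they change a call, a direction or a size by a wide margin.

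**Figure D1:**
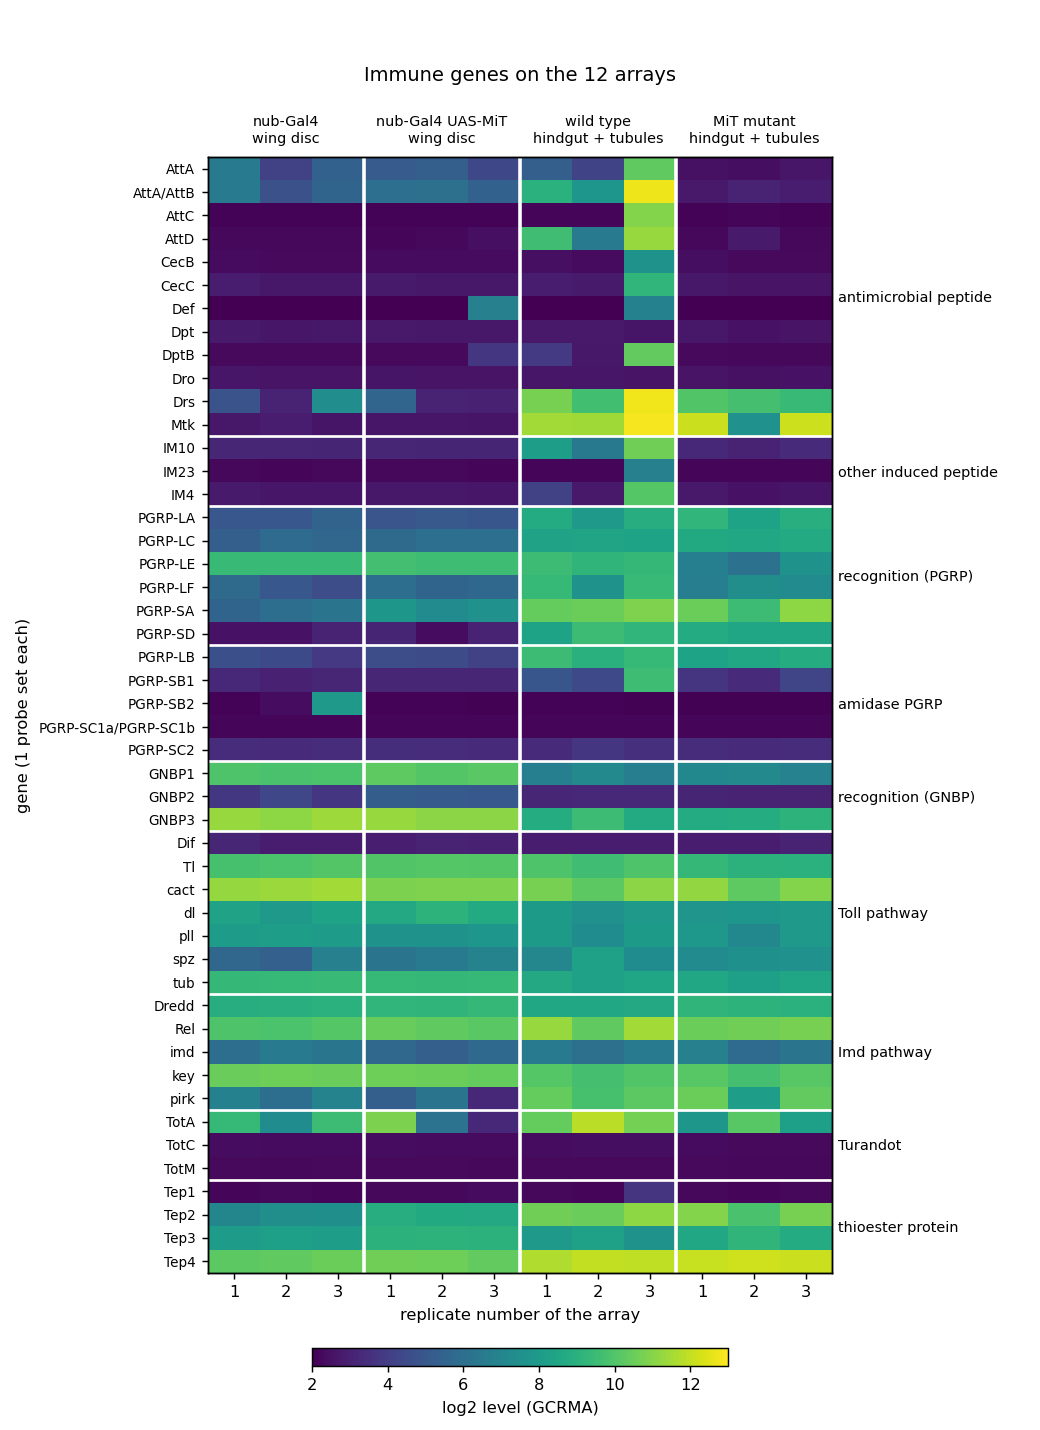
Log2 level (colour, GCRMA) of the 48 immune genes (rows, grouped by role) on the 12 arrays (columns, replicates 1 to 3 of each group). Signalling genes other than Dif were over the detection limit in all groups, many recognition genes were brighter in hindgut with tubules, and a block of peptide genes was bright on wild-type hindgut-tubule array 3.

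Of the 48 immune genes, 38 had a mean level of at least 4 in at least 1 group, 23 had it in all 4 groups and 10 in none. Wild-type hindgut with tubules had the most, 36, against 27 in control discs, 26 in MiT discs and 26 in mutant hindgut with tubules. Of the 36, AttC, CecB, CecC, DptB and IM4 owed their mean to wild-type array 3. They were at 7.64 to 10.98 there, against at most 4.14 on the other wild-type arrays. The 10 with a mean under 4 in every group were Def, Dif, Dpt, Dro, IM23, PGRP-SC1a/PGRP-SC1b, PGRP-SC2, TotC, TotM and Tep1; of these Def and IM23 reached the limit on 2 arrays and 1 array. PGRP-SB2 owed its place among the 38 to control disc array 3, at 7.91, against at most 2.37 on the other 11 arrays.

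With loss of MiT in hindgut and tubules 2.14% of all probe sets were called lower. Of the antimicrobial peptide genes, AttD and AttA/AttB passed as lower there among 5 tested probe sets, of which AttA and AttA/AttB both measure AttA. IM10 of the other induced peptides passed as lower too. All 3 calls were lost with the replicate number as a block (limma, adjusted p = 0.0583, 0.0533 and 0.0531). The 3 entered the test through their wild-type levels, which were uneven, and were under the detection limit on every mutant array, so only a lower bound of each difference is given. Attacins are peptides against Gram-negative bacteria. AttD was at 9.62, 6.54 and 11.31 on the wild-type arrays and at 2.24, 2.78 and 2.25 on the mutant arrays. Every wild-type value was above every mutant value, and the 3 mutant values were under the detection limit. The wild-type mean was at least 35.7-fold higher (n = 3 and 3; limma, adjusted p = 0.0321).

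AttA/AttB was at 9.04, 7.76 and 12.74 in wild type and at 2.77, 3.10 and 2.90 in the mutant. Again no mutant array reached the detection limit, and the wild-type mean was at least 57.5-fold higher (limma, adjusted p = 0.0343). IM10, a baramicin known as a Toll target with antifungal activity, was at 8.15, 6.44 and 10.62 in wild type and at 3.24, 3.05 and 3.29 in the mutant. Its wild-type mean was at least 21.1-fold higher (limma, adjusted p = 0.0457). The IM10 call held in 7 of 15 alternatives, against 8 for AttD and 9 for AttA/AttB. Unlike theirs, it was also lost with quantile normalization and when the filter asked for 3 of all 12 arrays. In a bulk sample, fewer cells that make a peptide and less RNA per cell cannot be told apart.

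For these 3 peptide probe sets, wild-type array 3 was the highest of the 12 arrays. Without it the bounds were at least 21.1-fold for AttA/AttB (limma, adjusted p = 0.0112), 9.79-fold for IM10 (adjusted p = 0.0369) and 16.9-fold for AttD, which did not pass (adjusted p = 0.0642). Without wild-type array 1, or without any one mutant array, none of the 3 passed, with adjusted p of 0.0688 to 0.141 for AttA/AttB, 0.0623 to 0.133 for AttD and 0.0841 to 0.158 for IM10. Same-numbered arrays of the 2 genotypes deviated together for numbers 1 and 2 (correlations 0.32 and 0.42), which is why the block is given here. For number 3 the correlation was 0.15, and mutant array 3 was nearer to wild-type array 1 (0.36). Averaged fat body markers overlapped between the genotypes. Of 8 tested fat body markers 0 passed in this comparison, where 2.42% of all probe sets were called higher and 2.14% lower. By sign 7 of the 8 were lower in the mutant and 1 was higher (median log2 difference -0.12). The part of fat body in the peptide differences was not tested.

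A separate AttA probe set was at 5.33, 4.24 and 10.32 in wild type and at 2.50, 2.42 and 2.68 in the mutant. The groups did not overlap, and the wild-type mean was at least 6.19-fold higher without passing (limma, adjusted p = 0.214). Without wild-type array 3 that bound was 1.72-fold (adjusted p = 0.0609). Drs, the antifungal peptide drosomycin and a classical Toll target, was at 10.75, 9.66 and 12.75 in wild type and at 10, 9.75 and 9.46 in the mutant. Mtk, metchnikowin, another antifungal peptide, was at 11.49, 11.43 and 12.83 in wild type and at 12.13, 7.55 and 12.16 in the mutant. Both overlapped between genotypes and did not pass (limma, adjusted p = 0.415 and 0.669), and the low Mtk value lies on mutant array 2. The Mtk difference was -1.30 and turned to 0.23 without that array, and the Drs difference was -1.31 and came to -0.47 without wild-type array 3. In contrast to the attacins, both stayed far above the detection limit on every hindgut-tubule array.

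Further peptide genes were seen on wild-type array 3 and hardly elsewhere. AttC was at 10.98 on that array and at 2.13 on both other wild-type arrays. DptB, a diptericin against Gram-negative bacteria, was at 3.88, 2.71 and 10.35 on the wild-type arrays. The cecropins, which lyse bacterial membranes, were likewise bright there, CecC at 9.22 and CecB at 7.64, against at most 2.86 and 2.45 on the other wild-type arrays. IM4 was at 4.14, 2.76 and 10.10 and IM23 at 2.21, 2.21 and 6.79. AttC, CecB, CecC, DptB and IM23 were at least 4 on no other of the 12 arrays, so they have no test and no group value. Def, the fly defensin, was at 6.85 on wild-type array 3 and at 6.77 on MiT disc array 3, and at most 2.02 on the other 10 arrays. Dpt and Dro, which belong to the same Imd-dependent peptides, were under 4 on every array, wild-type array 3 included.

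**Figure D2:**
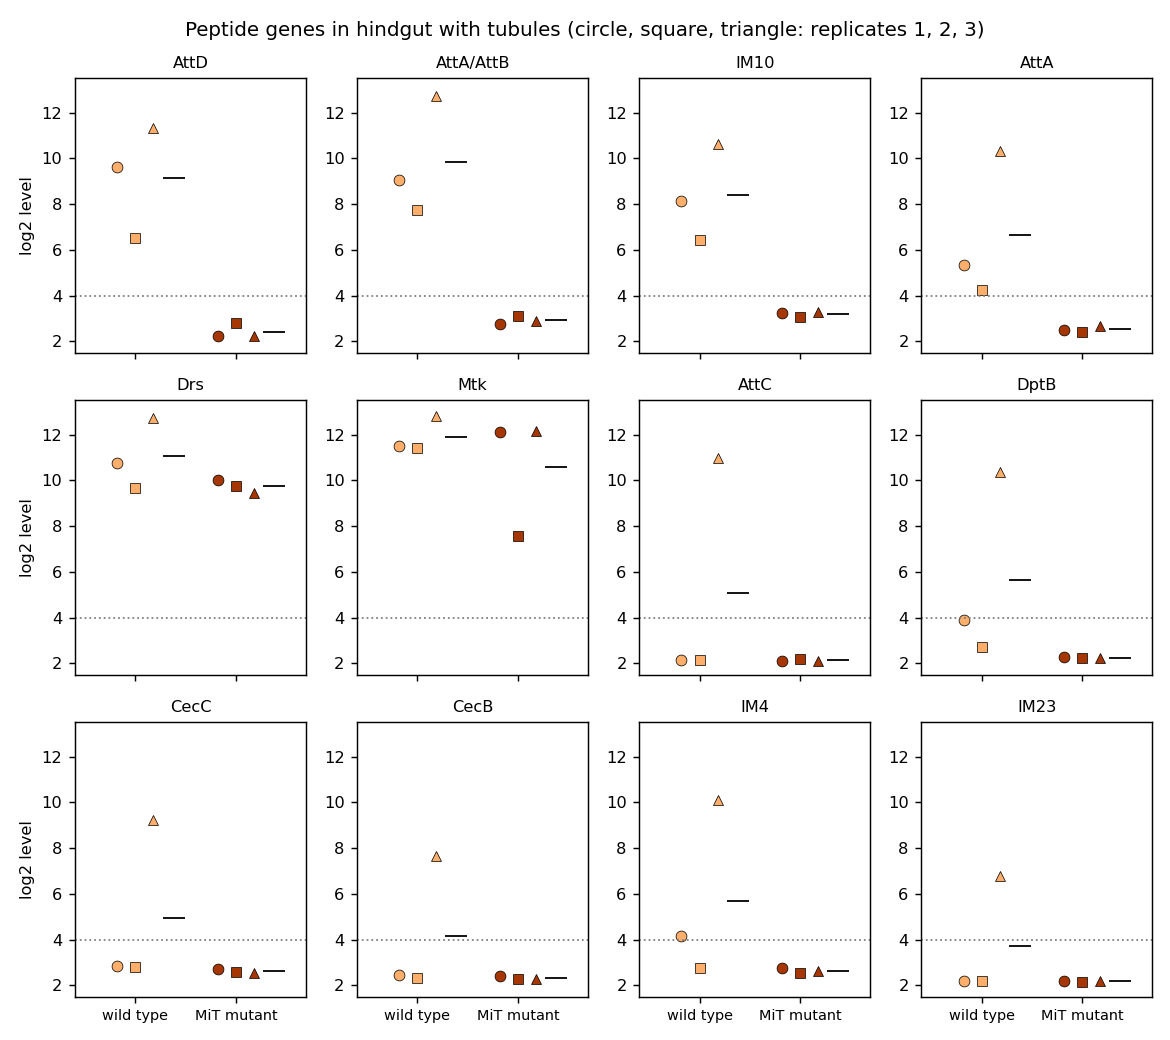
Log2 level (GCRMA) of 12 peptide genes on the 3 wild-type and 3 MiT mutant hindgut-tubule arrays; each symbol is an array, the short bar is the group mean and the dotted line is the detection limit of 4. AttD, AttA/AttB, IM10 and AttA lay over the limit on all wild-type arrays and under it on all mutant arrays, while AttC, CecB, CecC and IM23 were bright on wild-type array 3 alone.

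The peptide genes were mostly quiet in the discs. AttA/AttB was at 6.52, 4.71 and 5.53 in control discs and at 6.01, 6.06 and 5.40 in MiT discs, and AttA at 6.48, 4.19 and 5.42 against 5.16, 5.33 and 4.40. Both overlapped and did not pass (limma, adjusted p = 0.716 and 0.629). Drs was at 4.81, 3.04 and 7.40 in control discs and at 5.58, 3.07 and 3.03 in MiT discs, a spread within groups wider than the difference between them (limma, adjusted p = 0.485). AttC, AttD, CecB, CecC, Dpt, Dro, Mtk, IM4, IM10 and IM23 were under 4 on all 6 disc arrays.

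The smallest adjusted p of an immune gene with loss of MiT was that of PGRP-LE, which encodes a receptor that binds the peptidoglycan of Gram-negative bacteria inside the cell and signals through Imd. It was at 9.55, 9.18 and 9.32 in wild-type hindgut with tubules and at 6.76, 6.09 and 7.61 in the mutant. All 6 arrays were above the detection limit and the genotypes were well apart. PGRP-LE fell 5.77-fold (log2 difference -2.53, SE 0.39, 95% interval -3.48 to -1.58; limma, adjusted p = 0.0228), and it passed with the replicate block as well (adjusted p = 0.0394). Wild-type array 3 was the middle of its group here. Leaving out any wild-type array or mutant array 1 ended the call, with differences of -2.61 to -2.43 and adjusted p of 0.0571 to 0.0981.

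In the discs PGRP-LE was at 9.40, 9.45 and 9.41 without the transgene and at 9.71, 9.60 and 9.59 with it. Every MiT disc array was above every control array, and the rise of 1.16-fold (log2 difference 0.22, SE 0.07) was small and near the threshold (limma, adjusted p = 0.0481). Leaving out any of the 6 disc arrays ended that call (differences 0.18 to 0.24, adjusted p 0.0744 to 0.136). It was also lost with all 12 arrays in 1 fit, with median centring of the arrays and in the authors' deposited table. With the replicate block it was lost as well (limma, adjusted p = 0.122), so it held in 5 of 15 alternatives. Of 26 immune genes tested in both comparisons, PGRP-LE was the only one called higher in MiT discs and lower in the mutant, the pattern the series looked for. That pattern held for 39 of all 7112 probe sets tested in both (0.548%).

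The neighbouring genes PGRP-LA, PGRP-LC and PGRP-LF lie side by side in the reference order. PGRP-LC, the main membrane receptor of the Imd pathway, was at 8.32, 8.44 and 8.38 in wild-type hindgut with tubules and at 8.70, 8.59 and 8.71 in the mutant. Its mutant values were slightly above all wild-type values, and the difference of 0.29 did not pass (limma, adjusted p = 0.273). PGRP-LF, which blocks PGRP-LC, was at 9.36, 7.60 and 9.40 in wild type and at 6.70, 7.45 and 7.32 in the mutant. The groups were separate but close, and the difference of -1.63 (SE 0.53) did not pass (limma, adjusted p = 0.165). Without wild-type array 2 it was -2.22 and passed (adjusted p = 0.0219). PGRP-LA, a membrane member of the family, overlapped between genotypes (log2 difference 0.31; limma, adjusted p = 0.683).

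PGRP-LB, an amidase that cuts peptidoglycan and so damps the Imd signal, was at 9.55, 8.97 and 9.37 in wild type and at 8.39, 8.58 and 8.83 in the mutant. It was lower on all 3 mutant arrays, but the difference of -0.70 (SE 0.21) did not pass (limma, adjusted p = 0.14). PGRP-SB1, another amidase, was at 4.93, 4.43 and 9.57 in wild type and at 3.70, 3.34 and 4.28 in the mutant, with wild-type array 3 again far above the rest. Its log2 difference was -2.54, and -0.91 without that array (limma, adjusted p = 0.381 and 0.344). The mutant mean was under 4, so these are no estimate of size, and the wild-type mean was at least 4.65-fold higher. PGRP-SA, a circulating receptor that feeds the Toll pathway, and PGRP-SD, another secreted receptor, overlapped between genotypes in hindgut with tubules (log2 differences -0.22 and -0.44; limma, adjusted p = 0.841 and 0.52).

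In the discs PGRP-LA, PGRP-LB, PGRP-LC and PGRP-LF overlapped between groups and did not pass, at log2 differences of -0.19, 0.11, 0.34 and 0.64; without control disc array 1 PGRP-LF differed by 0.97 and passed (limma, adjusted p = 0.0183). PGRP-SA was separate there. It was at 5.55, 5.97 and 6.25 in control discs and at 7.84, 7.32 and 7.58 in MiT discs. The 2 groups were more than a unit apart at their closest, and PGRP-SA rose 3.16-fold (log2 difference 1.66, SE 0.21; limma, adjusted p = 0.00316), although its adjusted p in the authors' deposited table was 0.0591. GNBP2, a glucan-binding family member, was at 3.78, 4.36 and 3.76 in control discs, where 1 of 3 arrays was over the detection limit, and at 5.25, 5.10 and 5.02 in MiT discs. GNBP2 rose at least 2.00-fold (limma, adjusted p = 0.00561), and it entered the test through its MiT disc levels.

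GNBP1, the partner of PGRP-SA in sensing Gram-positive bacteria, lies next to GNBP2 in the reference order. It was at 9.96, 9.85 and 9.90 in control discs and at 10.27, 10.06 and 10.20 in MiT discs, a rise of 1.21-fold (log2 difference 0.27; limma, adjusted p = 0.0442) that was lost when any of the 6 arrays was left out (0.23 to 0.33, adjusted p 0.0525 to 0.124). GNBP3, a sensor of fungal glucans, overlapped between the discs (log2 difference -0.12; limma, adjusted p = 0.426). In hindgut with tubules GNBP1 and GNBP3 overlapped between genotypes, and GNBP2 was under 4 on all 6 arrays.

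**Figure D3:**
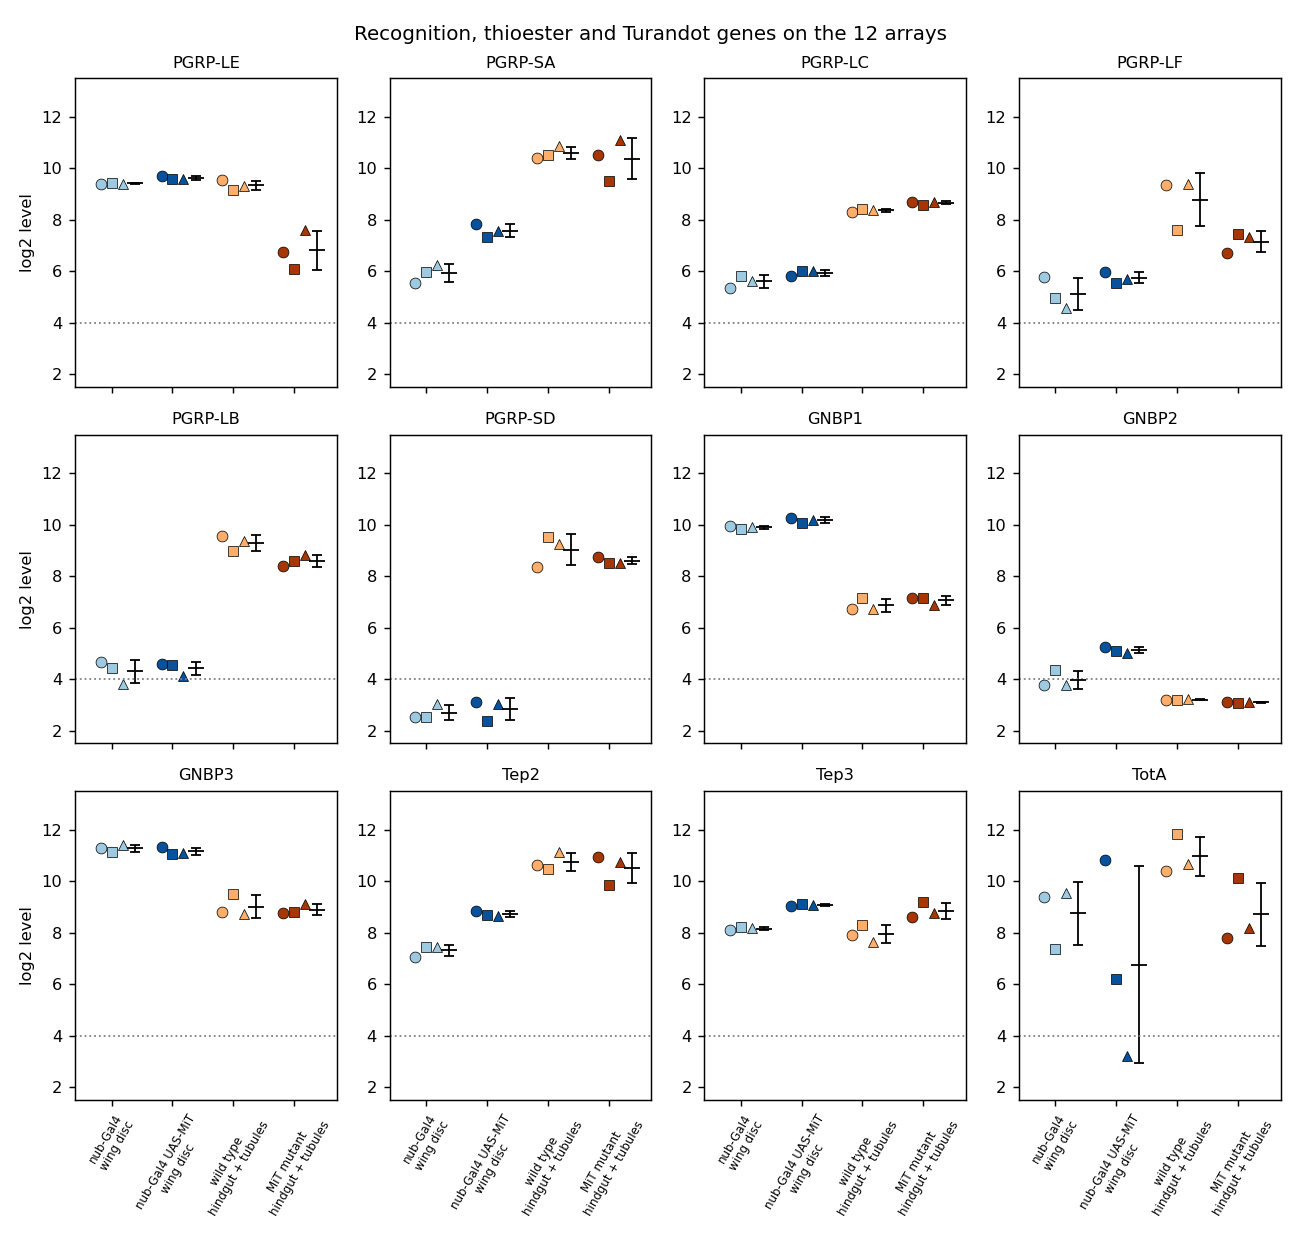
Log2 level (GCRMA) of immune genes in the 4 groups, with a symbol per array and the group mean with its SD beside them; the dotted line is the detection limit of 4. PGRP-LE was lower on the 3 mutant arrays than on the other 9, and PGRP-SA, Tep2 and Tep3 were higher on the 3 MiT disc arrays than on the 3 control disc arrays.

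The thioester proteins gave the smallest adjusted p of the immune genes in the discs. They are secreted proteins related to complement that bind microbes, and hemocytes are a known source. Tep2 was at 7.04, 7.43 and 7.46 in control discs and at 8.85, 8.68 and 8.63 in MiT discs. The groups were apart by more than the spread within either, and Tep2 rose 2.66-fold (log2 difference 1.41, SE 0.13; limma, adjusted p = 0.00115). Tep3, the gene next to Tep2 in the reference order, was at 8.10, 8.22 and 8.17 in control discs and at 9.05, 9.13 and 9.08 in MiT discs. Its replicates agreed closely, and it rose 1.90-fold (log2 difference 0.93, SE 0.07; limma, adjusted p = 0.000443). Tep4 overlapped between the discs (log2 difference 0.14; limma, adjusted p = 0.392), and Tep1 was under 4 on all 12 arrays.

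Most hemocyte markers moved with these disc genes. Of 13 tested hemocyte markers 8 were higher in MiT discs and 0 lower, against 15% and 17.5% of all probe sets tested, among them the scavenger receptor Sr-CI (log2 difference 3.25), the clotting factor gene Hml (2.64) and the phagocytic receptor gene NimC1 (2.09). Sr-CI was at 4.81, 4.72 and 4.06 in control discs and at 7.47, 8.0 and 7.85 in MiT discs. By sign 10 of the 13 were higher and 3 were lower, the 3 without passing. Those were ush (mean 8.34 in control and 8.05 in MiT discs), PPO1 (4.47 and 4.36) and PPO2 (6.86 and 6.68). The part of hemocytes in the rise of Tep2, Tep3, PGRP-SA and GNBP2 was not tested.

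**Figure D4:**
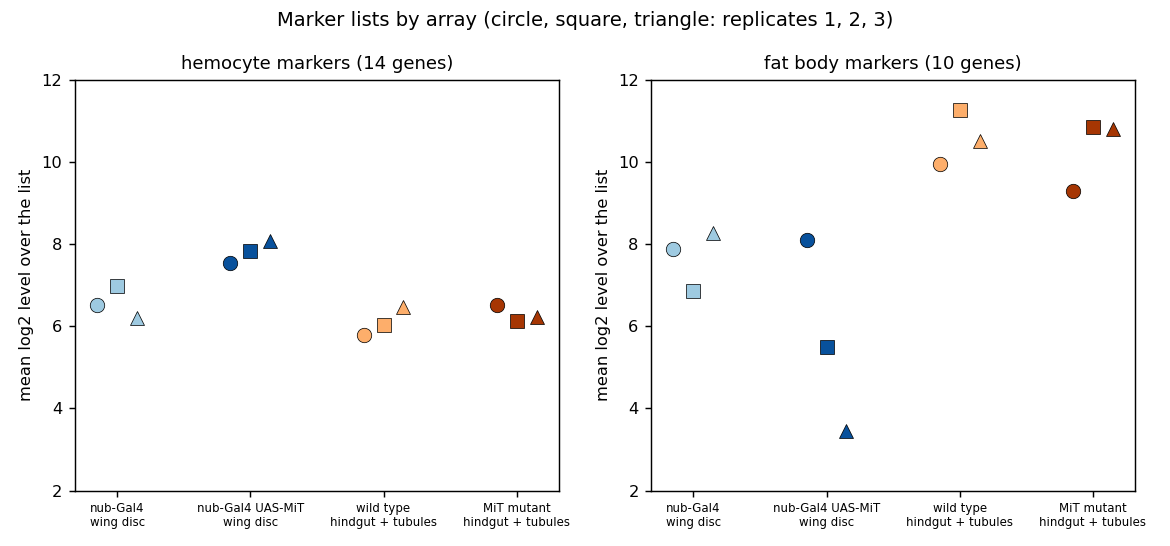
Mean log2 level (GCRMA) over the 14 hemocyte and 10 fat body marker genes on each of the 12 arrays. The hemocyte mean was 6.20 to 6.98 in control discs and 7.53 to 8.08 in MiT discs, and the fat body mean was higher in hindgut with tubules than in the discs.

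In mutant hindgut with tubules Tep3 was at 8.61, 9.19 and 8.76, against 7.91, 8.31 and 7.62 in wild type. All mutant values were above all wild-type values, but the difference of 0.90 (SE 0.24) did not pass (limma, adjusted p = 0.112). Tep2 overlapped between genotypes (log2 difference -0.24; limma, adjusted p = 0.782), as PGRP-SA did. Tep4 was separate by a small margin (log2 difference 0.26; limma, adjusted p = 0.389).

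Signalling genes of the Toll pathway changed little and in both directions in the discs. The inhibitor cact, which holds the NF-kappaB factors in the cytoplasm, was at 11.27, 11.33 and 11.47 in control discs and at 10.82, 10.89 and 10.87 in MiT discs. It was lower on all MiT arrays and fell by 0.50 on the log2 scale (SE 0.08; limma, adjusted p = 0.00561). A dimmer probe set of cact differed by -0.40 and did not pass (limma, adjusted p = 0.0631). The kinase gene pll was at 8.03, 8.17 and 8.04 against 7.63, 7.66 and 7.79 and fell by 0.39 (SE 0.08; limma, adjusted p = 0.0132). Without MiT disc array 2 its adjusted p was 0.0551 at a difference of -0.37.

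The factor dl (dorsal) was at 8.33, 7.96 and 8.36 in control discs and at 8.64, 9.11 and 8.74 in MiT discs. It rose 1.53-fold (log2 difference 0.62, SE 0.17; limma, adjusted p = 0.0334), and its dimmer probe set did not pass (0.20, adjusted p = 0.261). The call was lost without any array but MiT disc array 1 (0.47 to 0.69, adjusted p 0.0517 to 0.0832). The receptor gene Tl, the adaptor gene tub and the ligand gene spz overlapped between the discs and did not pass (log2 differences 0.13, -0.01 and 0.64). Without control disc array 3, which held the highest spz level of its group, spz differed by 1.07 and passed (limma, adjusted p = 0.023). Dif was under 4 on all 12 arrays.

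In hindgut with tubules Tl was at 9.98, 9.62 and 9.99 in wild type and at 9.32, 9.06 and 9.03 in the mutant. It was lower on every mutant array, but the difference of -0.73 (SE 0.17) did not pass (limma, adjusted p = 0.0759). The other 5 tested Toll genes differed by -0.14 to 0.13 and overlapped between genotypes. The dimmer probe set of dl differed by 0.79 there and did not pass (limma, adjusted p = 0.0997).

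Among the Imd genes, the adaptor gene imd was at 5.97, 6.47 and 6.29 in control discs and at 5.71, 5.33 and 5.78 in MiT discs. It fell by 0.64 on the log2 scale (SE 0.17; limma, adjusted p = 0.0331), a call that held without control array 1 and was lost without any other (-0.73 to -0.50, adjusted p 0.0518 to 0.087). Dredd, the caspase that cleaves imd and Relish, was at 8.87, 8.95 and 9.02 against 9.23, 9.21 and 9.31 and rose 1.23-fold (log2 difference 0.30, SE 0.07; limma, adjusted p = 0.0221). That call held without control array 3 and was lost without any other (0.27 to 0.32, adjusted p 0.0501 to 0.076). Rel, the NF-kappaB factor of the pathway, was at 9.99, 9.87 and 10.11 against 10.43, 10.33 and 10.17. Its groups did not overlap, and the difference of 0.32 was just short of the threshold (limma, adjusted p = 0.0524).

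The Imd kinase subunit gene key did not differ by more than 0.01 in the discs. The feedback inhibitor pirk was at 6.83, 5.98 and 6.93 in control discs and at 5.31, 6.22 and 3.24 in MiT discs, a difference of -1.66 with a wide spread (limma, adjusted p = 0.137). In hindgut with tubules Dredd was at 8.56, 8.56 and 8.64 in wild type and at 9.18, 9.13 and 9.01 in the mutant. The genotypes were clearly apart for Dredd, at a difference of 0.52 (SE 0.13) that did not pass (limma, adjusted p = 0.0839). The remaining Imd genes, imd, key, Rel and pirk, overlapped between genotypes; pirk was at 10.53, 8.17 and 10.37 in the mutant, with mutant array 2 low as for Mtk, and its difference of -0.45 turned to 0.31 without that array.

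TotA, a secreted stress peptide that the fat body makes on JAK/STAT signalling, varied widely within groups. It was at 9.37, 7.36 and 9.55 in control discs and at 10.84, 6.21 and 3.22 in MiT discs. The mean over fat body markers ran in the same order as TotA within each of the 4 groups. It was 7.87, 6.87 and 8.26 on the control disc arrays and 8.09, 5.49 and 3.45 on the MiT disc arrays. On the hindgut-tubule arrays it was 9.96, 11.26 and 10.50 in wild type and 9.28, 10.86 and 10.80 in the mutant. Its part in the TotA levels was not tested in either tissue. In wild-type hindgut with tubules TotA was at 10.40, 11.84 and 10.68, and in the mutant at 7.81, 10.13 and 8.19. The mutant values were all lower, at a difference of -2.26 (SE 0.70) that did not pass (limma, adjusted p = 0.146). With the replicate block it passed (adjusted p = 0.0258), and without mutant array 2 it was -2.97 (adjusted p = 0.0373). TotC and TotM were under 4 on all 12 arrays.

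Counted over the comparisons, 27 of the 48 immune genes could be tested in the discs, where a gene had to reach 4 on at least 3 of the 6 arrays. Of these, 8 were higher with MiT (15% of all 7888 probe sets tested were), 3 were lower (17.5% of all) and 16 did not pass. The median log2 difference of the 27 was 0.14, against -0.04 over all tested. Among the 25 whose means were at least 4 in both groups, 7 were higher and 3 lower. For 9 genes every MiT array was above every control array and for 3 every MiT array was below, against 22% and 28.7% of all tested. A count of 8 or of 3 among 27 is not a result about immune genes as a class. In hindgut with tubules 31 could be tested, of which 0 were higher in the mutant (2.42% of all 7887 were) and 4 were lower (2.14% of all).

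A total of 11 immune genes had an unadjusted p under 0.05 in hindgut with tubules by limma, against 19.9% of all tested, and 10 were lower in the mutant with no overlap between genotypes, against 13.1% of all tested; 4 were higher with no overlap, against 13.9%. The median was -0.24, against 0.00 over all tested. PGRP-SB1, AttA, AttA/AttB, AttD and IM10 entered this test through the wild-type group, their mutant mean being under 4. Among the 26 whose means were at least 4 in both genotypes, 1 was called lower, 0 higher, and the median was -0.14. With the replicate block 2 of the 31 were lower, PGRP-LE and TotA. When all probe sets were tested with no filter on dim ones, 0 immune genes passed as lower and the 4 had adjusted p of 0.089 to 0.158.

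**Figure D5:**
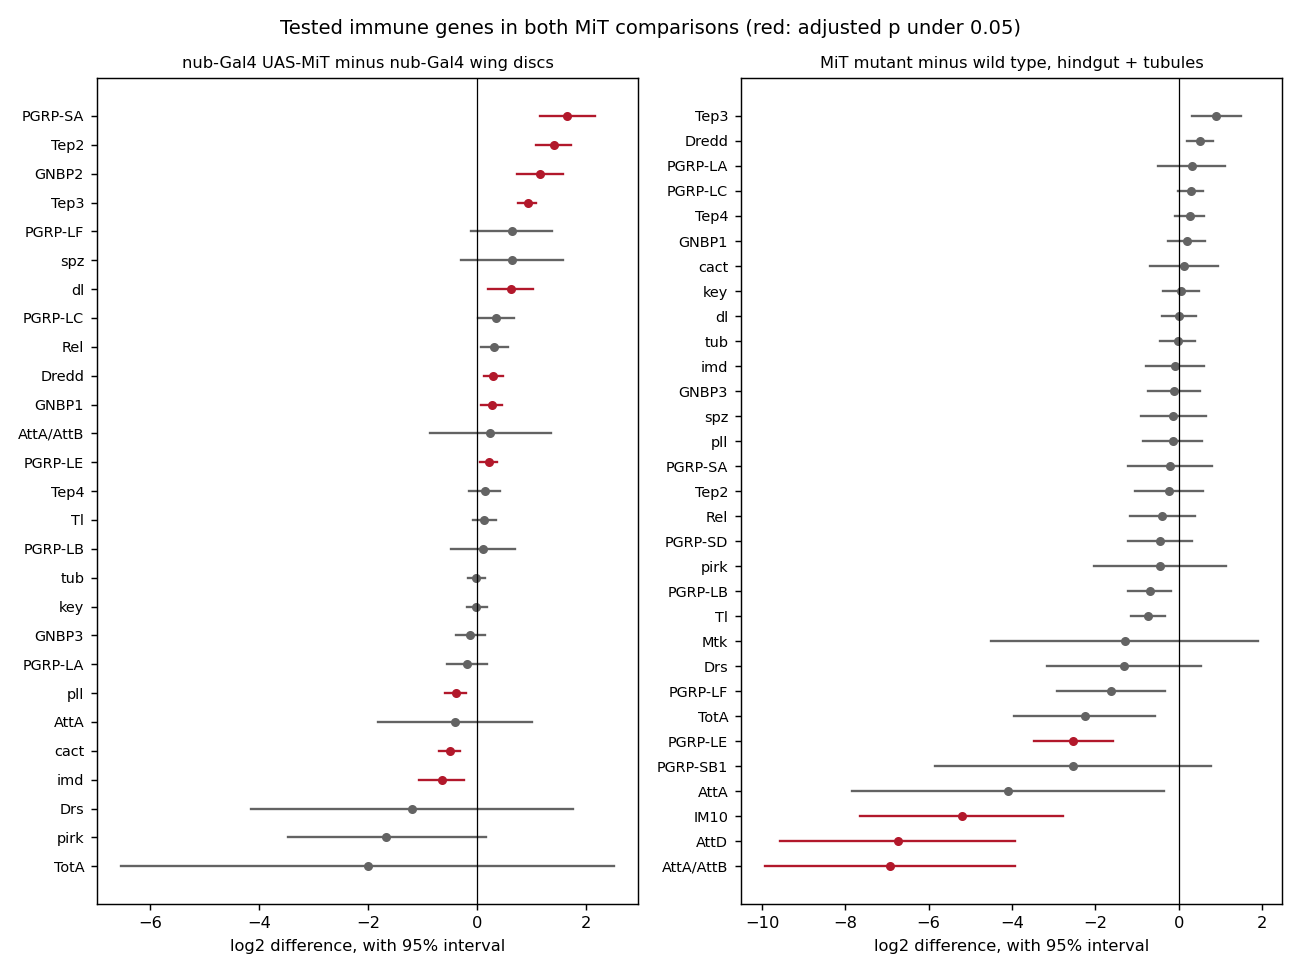
Log2 differences with 95% intervals (limma) of the tested immune genes for MiT against control discs and for mutant against wild-type hindgut with tubules; red points passed the adjusted threshold of 0.05. In the discs 8 genes were higher and 3 lower, and in hindgut with tubules 4 were lower, with much wider intervals for the peptide genes. The mutant levels of AttA, AttA/AttB, AttD and IM10 are under the detection limit. So are the group means of PGRP-SB1 (mutant), GNBP2 (control discs) and Drs (MiT discs). The points of these genes are no estimate of size.

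Wild-type hindgut with tubules was last set against control discs, which differ in tissue and in genotype, the discs carrying nub-Gal4; the same arrays are the controls of the comparisons above. Of 31 tested immune genes 17 were higher in hindgut with tubules (29.6% of all 8410 probe sets tested were), 6 were lower (47.5% of all) and 8 did not pass. Their median difference was 1.66, against -0.37 over all tested. The groups did not overlap for 18 higher and 7 lower genes, against 31.3% and 51% of all tested. PGRP-SB1, PGRP-SD, AttD, Mtk and IM10 entered this test through hindgut with tubules, their control disc mean being under 4. With both means at least 4 the counts were 13 higher and 6 lower of 26, and the median was 1.15. Fat body markers moved the same way, with 7 of 8 tested higher in hindgut with tubules, and their part in these differences was not tested.

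Among recognition genes PGRP-SA was at 10.41, 10.52 and 10.86 in hindgut with tubules, against 5.92 on average in control discs, a difference of 4.68 (SE 0.22; limma, adjusted p = 3.91e-06). PGRP-LB differed by 4.98, PGRP-LF by 3.68, PGRP-LA by 3.38 and PGRP-LC by 2.77, each called higher. PGRP-SD, at 8.36, 9.53 and 9.24, was under 4 on all control disc arrays and so was at least 33.0-fold higher. PGRP-LE stood out among the tested recognition PGRP genes as the one that did not pass, at 9.35 in hindgut with tubules and 9.42 in control discs (difference -0.07, 95% interval -0.38 to 0.24). GNBP1 and GNBP3 went the other way and were lower by 3.04 and 2.27 on the log2 scale in hindgut with tubules.

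Mtk was at least 242-fold higher in hindgut with tubules than in control discs, Drs differed by 5.97, and AttD and IM10 were at least 35.7-fold and 21.1-fold higher. Tep2 differed by 3.45, Tep4 by 1.51 and Tep3 by -0.22, the last without passing. The Imd feedback inhibitor pirk differed by 3.55 and Rel by 1.03, while key, Dredd, tub and cact were lower by 0.56, 0.36, 0.91 and 0.67. Leaving out 1 array ended 6 of these calls, at adjusted p of at most 0.0962: Rel (wild-type array 1 or 3, or control disc array 1 or 2), cact (wild-type array 1 or any control disc array), AttA/AttB and Dredd (control disc array 2 or 3), spz (control disc array 1 or 2) and TotA (wild-type array 2). The Rel difference was then 0.81 to 1.39 and that of AttA/AttB 2.81 to 5.30 over all such fits.

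Other genes of these pathways were taken from lists. Their counts in the discs stand against 15% of all probe sets called higher and 17.5% called lower. In MiT discs 2 of 5 tested further peptides rose (median of the 5, 0.53). The bomanin BomS6, of a family of short Toll-induced peptides, was at 5.06, 5.88 and 4.62 in control discs and at 9.11, 8.71 and 9.76 in MiT discs (log2 difference 4.01; limma, adjusted p = 0.00127). BomT3 was under 4 in control discs and at 6.03, 5.96 and 5.51 in MiT discs, at least 3.56-fold higher (limma, adjusted p = 6.97e-05). It entered the test through its MiT disc levels alone. Of 13 tested Toll cascade genes (median -0.38) 0 rose and 4 fell: SPE, the protease that activates the Toll ligand (at least 1.48-fold), spirit (-1.89), Pli (-0.39) and spz5 (-0.38). SPE was under 4 on the MiT disc arrays and entered the test through its control disc levels alone.

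Of 15 further Imd genes (median -0.04) IKKbeta, dnr1 and POSH rose by 0.28 to 0.68 on the log2 scale and CYLD fell by 0.39. Of 8 tested Turandot and JAK/STAT genes (median 0.22) 4 rose and 0 fell, among them the cytokine gene upd1, at 4.98, 4.73 and 5.19 in control discs and 6.39, 6.88 and 7.42 in MiT discs (log2 difference 1.93), and the feedback inhibitor Socs36E (1.18). The others were the receptor gene dome (0.46) and Socs16D (0.27). The lists of thioester and lysozyme genes had 1 and 2 tested genes in the discs and in hindgut with tubules, and 0 passed.

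Against 2.42% of all probe sets called higher and 2.14% called lower, in mutant hindgut with tubules 0 of 4 tested further peptides and 0 of 15 Imd genes passed (medians -0.69 and 0.05). In the Toll list spz3, which is related to the Toll ligand, rose by 1.61 (limma, adjusted p = 0.0335) as 1 of 12 tested. In the JAK/STAT list 1 of 7 tested passed, vir-1, a virus-induced gene used as a JAK/STAT target. It was at 9.17, 9.03 and 9.63 in wild type and at 10.76, 11.16 and 11.86 in the mutant. Its log2 difference was 1.98 (limma, adjusted p = 0.0272). Neither the spz3 nor the vir-1 call was examined with the replicate block. Wild-type array 3 stood apart in the peptide list as well, with 8 of 19 further peptides at least 2-fold over both other wild-type arrays, among them BomS1 at 10.26 against 2.70 and 2.59. SPE was at 9.04 there, against 2.55 and 3.79. Of the fat body and hemocyte markers 0 of 10 and 1 of 14, NimC1, were at least 2-fold higher on that array, as were 1.13% of all probe sets. Averaged over the 14 hemocyte markers, that array was the highest of its group, at 6.47 against 5.78 and 6.03. The fat body average was 10.50 there, against 9.96 and 11.26. The part of either in the peptide levels was not tested.

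Set against control discs, wild-type hindgut with tubules had 2 higher and 2 lower of 6 tested further peptides, where 29.6% and 47.5% of all probe sets were called, which also holds for the lists that follow. IM33 and the drosomycin-like Drsl2 were at least 1630-fold and 37.3-fold higher there, and Drsl5 and Listericin were higher in the discs, with Drsl5 at 7.40, 12.67 and 12.46 in control discs. Of 13 tested Toll cascade genes 2 were higher in hindgut with tubules, grass and nec, and 6 lower, among them the Toll-related receptor genes 18w (-4.40) and Tollo (-3.84). Of 15 Imd genes 4 were higher and 4 lower, of 8 JAK/STAT genes 1 and 3, and of 2 thioester and lysozyme genes 1 and 1, LysX being at least 472-fold higher. IM33, Drsl2 and LysX were under 4 in control discs and entered the test through hindgut with tubules. Drsl5 had a mean of 3.82 in hindgut with tubules and entered through the control discs, where it was at least 72.7-fold higher.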

How the data were processed

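RNA was extracted with TRIzol and hybridised to Affymetrix Drosophila_2 arrays, per the labels. The deposited levels are log2 values, per the column description, made by GCRMA per the submitters' processing notes, a method that removes background estimated from probe sequence and puts the arrays on a common scale; no version is stated. The authors' deposited analysis of variance table gives adjusted p-values, used in 1 alternative, and signed fold values, per the file headers a score that gives control over MiT for the discs and was turned. Its 12 per-sample columns were not used.

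Without the 183 control probe sets, names came from the accessions and symbols of the deposited table, looked up in RefSeq genes of Release 6 (names and gene order only): 13978 had 1 named gene, 1 a gene with no symbol, 805 several and 3985 none. Tep1 to Tep4 and dl were matched by accession. No sequences are printed.

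Each comparison was fitted over its own 6 arrays with limma 3.58.1 in R 4.3.3 (lmFit, eBayes, no covariates), on probe sets with a log2 level of at least 4 on at least 3 of the 6 arrays, with Benjamini-Hochberg adjustment over all of them and a threshold of 0.05. Where a group mean was under 4 the fold is a bound against that level. The fit was tested on simulated data with each tissue's spread: with 1500 changed of 7887 probe sets, 6.84% of its hindgut-tubule calls were false, against 19.4% for a fit of all 12 arrays (16.9% and 54.6% with 200 changed). In the discs, with 1500 changed of 7888, the 12-array fit had fewer false calls, 2.44% against 5.65% (4.42% and 9.7% with 200 changed). The 6-array fit recovered 59.2% of hindgut-tubule log2 changes of 1 and 86.4% of 2 with 1500 changed, and 41.8% and 68.2% with 200 changed. The number of arrays limits the precision.

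Groups and replicate numbers come from the titles. Same-numbered hindgut-tubule arrays had correlations of deviations of 0.32, 0.42 and 0.15, and those of unlike number -0.43 to 0.36. Numbers 1 and 2 thus deviated together, and number 3 did not clearly pair. A fit with the number as a block was therefore an alternative to the fit without it that gives the main values. It is printed beside each immune gene result there whose call it changes, and was not examined for Mitf or the listed genes spz3 and vir-1. In the discs number 1 had a correlation of 0.36, as high as in hindgut with tubules, but numbers 2 and 3 had -0.07 and -0.18. Disc arrays of unlike number had -0.43 to 0.44, so the numbers did not clearly pair the discs. Between tissues (0.01, 0.09 and 0.18) they did not either. Correlations between replicates were 0.948 to 0.995 in the mutant, 0.981 to 0.991 in wild type and 0.994 to 0.996 in the discs.

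Every immune gene with a call or a group mean of at least 4 was to be named. The members, and the lists of further peptides, Toll, Imd, JAK/STAT, thioester and lysozyme genes and of tissue markers, were chosen with earlier results of these data known. Other filters, scalings, fits and left-out arrays were tried as alternatives.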

Additional observations from a re-analysis of the deposited data

How the results depend on the processing

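No immune gene called in a comparison changed direction under any alternative run. Fitting all 12 arrays together gave 6 higher and 0 lower immune genes in MiT discs (8 and 3 otherwise; all probe sets 628 and 483, against 1181 and 1381), and 2 higher and 7 lower in the mutant (0 and 4; all probe sets 717 and 660, against 191 and 169). In that fit cact, pll, imd, GNBP1 and PGRP-LE no longer passed in the discs; in the mutant the 2 were Tep3 and Dredd, and the added lower calls were AttA, PGRP-LF and Tl. The adjusted p-values of the authors' deposited table gave 4 higher and 0 lower in the discs (all, 449 and 305) and 2 higher and 5 lower in the mutant (all, 485 and 438). With no filter, 1 (Dredd) was higher and 0 lower in the mutant; the cause was not tested.

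Leaving out each array in turn gave 4 to 7 higher and 1 to 3 lower immune genes in the discs (all probe sets 791 to 1055 and 719 to 1180), and 0 to 0 higher and 0 to 4 lower in the mutant (all, 63 to 249 and 67 to 191). In the discs Tep2, Tep3, PGRP-SA, GNBP2 and cact passed in all 6 of these fits. With the replicate block the counts were 4 higher and 2 lower in the discs, where GNBP1, PGRP-LE, dl, Dredd and imd no longer passed, and 2 lower in the mutant. Between tissues the block ended the calls of TotA and Dredd (adjusted p 0.0516 and 0.0521) and added PGRP-SB1 and dl (0.049 and 0.0417). Signal near background limits the peptides: 16 immune genes could be tested in no comparison.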
